A study of Mus musculus with 4 samples.

Results

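The leukocyte integrin genes, which code for the alpha and beta chains of integrins on blood cells, were followed in sorted preproB cells of mice with and without deletion of a Cebpa enhancer. They were taken by gene name as Itgal, Itgam, Itgax, Itgb2, Itga4, Itgb7, Itgb1, Itga5, Itga6 and Itgb3. These are 10 of 31660 named genes, measured by 17 of 39429 probes. RNA was profiled on 1-colour microarrays from EnhDel and control mice, both of strain C57BL/6, with 2 arrays per group. EnhDel mice had the genotype Enh(f/f);Mx1-Cre and control mice had Enh(f/f), so both groups carried loxP sites around the enhancer 37 kb from Cebpa, the gene of a myeloid transcription factor. All mice were given 3 doses of pIpC, a double-stranded RNA that induces interferon, and marrow was taken 5 weeks later. Mx1-Cre is induced by interferon and acts in marrow cells at large, not in B-lineage cells alone, and loss of the enhancer and presence of Cre cannot be told apart. The sort took lineage-negative marrow cells that bore CD43 and B220 and lacked both CD24 and BP1, an early B-lineage stage. Both EnhDel samples and control replicate 2 were labelled as males of 24 weeks, and control replicate 1 as a female of 26 weeks.

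An integrin is a pair of 1 alpha and 1 beta chain that spans the cell membrane, and the beta chain decides which alpha chains it can join. Outside the cell the pair binds matrix proteins or proteins on other cells, and inside the cell talin and kindlin switch it to a binding state. On blood cells the beta2 family and the alpha4 integrins carry adhesion to vessel walls and to marrow stroma, and the array measures the RNA of each chain, not the pairs on the surface.

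None of the 10 genes differed between EnhDel and control cells past an adjusted p of 0.05 (limma with Benjamini-Hochberg adjustment), where 0 of all 19394 tested genes did (0%). At an unadjusted p under 0.05, Itgb2, the chain shared by the beta2 family, was the 1 gene of 10, against 11.2% of all genes tested (7.23% higher and 3.96% lower in EnhDel cells). It was 1.36-fold higher in EnhDel cells (95% interval 1.04 to 1.79). In 4 of 10 genes the EnhDel and control arrays did not overlap, with EnhDel above for Itgb2, Itgal and Itga4 and below for Itga5. The same held for 44.1% of all genes (28.6% with EnhDel above and 15.5% with EnhDel below), so the integrins' share lay near the background. The 95% interval of the difference lay within 2-fold in either direction for 9 of 10 genes, with Itgam as the exception, and for 67.5% of all genes. With 2 arrays per group an exact permutation test cannot give a p below 0.333, and the p-values rest on the spread among these 4 samples.

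The targeted gene, Cebpa, had scaled signals of 138 and 293 on EnhDel arrays 1 and 2, against 1320 and 865 on control arrays 1 and 2. Scaled signal here means the processed signal relative to the array's 75th percentile, which is set to 1000. The log2 difference for Cebpa was -2.41 ± 0.44 (SE) with an adjusted p of 0.238. Of the 12 preproB and gate markers, and of 10 markers of plasmacytoid dendritic cells, every one was well above background on all 4 arrays. The preproB and gate markers summed to 318600 and 242900 on EnhDel arrays and 333500 and 303500 on control arrays. Ly6d, named after its values were seen, made up most of each sum. The others summed to 132600 and 109900 on EnhDel arrays and 140500 and 142500 on control arrays. Of the 12, 7 were lower in EnhDel cells at an unadjusted p under 0.05, beside 3.96% of all genes tested. These were Igll1 (0.0949-fold), Vpreb1 (0.12-fold), Ebf1 (0.198-fold), Rag1 (0.217-fold), Cd79a (0.577-fold), Kit (0.586-fold) and Flt3 (0.657-fold). None passed the adjusted threshold, and 3 of the 12 had a positive difference. Of the genes of proteins the gate excludes, Enpep, which codes for BP1, was above background on no array, while Cd24a and Cd3e were above it on all 4. Xist was well above background on EnhDel array 2 alone (611, against 5.88 on EnhDel array 1 and 5.16 and 3.73 on the control arrays), although that sample is labelled male. Eif2s3y, a Y-linked gene, had 6150 and 2690 on EnhDel arrays and 5130 and 6380 on control arrays, so control replicate 1, labelled female, had no Xist above background and a Y-linked signal like that of control replicate 2. The difference of each integrin gene is therefore also given without EnhDel replicate 2 and without control replicate 1. Between replicates, the log2 values of all genes differed with an SD of 0.611 in EnhDel and 0.333 in control samples.

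Itgb2 codes for the beta2 chain, CD18, without which the alpha chains of its family do not reach the cell surface. Its scaled signal was 11100 and 11600 on EnhDel arrays 1 and 2, against 8360 and 8300 on control arrays 1 and 2. Both EnhDel arrays were above both control arrays, and the replicates of each group lay close together. The log2 difference was 0.44 ± 0.15 (SE), with an unadjusted p of 0.0342 and an adjusted p of 0.409 in limma. It stayed at 0.41 without EnhDel replicate 2 and at 0.45 without control replicate 1. With normexp background correction after repair of 6 spots of high local background on EnhDel array 1, the difference was 0.42 (unadjusted p 0.0168). The unadjusted p was no longer under 0.05 with normexp without that repair (0.601), with median scaling (0.259) or without the filter on dim probes (0.0604). The same held with the replicate number as a block (0.0723) and with either control replicate left out. In all 16 settings run (all 4 arrays and 15 alternatives) Itgb2 had a positive difference, between 0.16 and 0.48. The 60-base probe of Itgb2 lies at chr10:77027978-77028037 of build mm9, on the plus strand.

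Itgal codes for the alpha L chain, which joins beta2 to form LFA-1, a receptor for ICAM proteins. Its brightest probe, at chr7:134477064-134477123 (mm9), gave 2390 and 2420 on EnhDel arrays, against 2280 and 1930 on control arrays. Both EnhDel arrays were above both control arrays, but the difference of the group means was smaller than the gap between the control replicates. On the log2 scale Itgal differed by 0.20 ± 0.17 (SE, adjusted p 0.705). It differed by 0.19 without EnhDel replicate 2, by 0.32 without control replicate 1 and by 0.08 without control replicate 2. A second probe of Itgal gave 2470 and 2300 in EnhDel cells against 2100 and 1930 in control cells, again without overlap. The dimmest, designed on another transcript, gave 113 and 164 in EnhDel cells and 116 and 92.7 in control cells, where the groups overlapped. All 3 probes of Itgal thus had positive differences, of 0.20 to 0.39 on the log2 scale, although median scaling of the arrays gave -0.006 for the brightest.

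Itgam codes for the alpha M chain, CD11b, which with beta2 forms Mac-1 on myeloid and NK cells. On its brightest probe, at chr7:135261755-135261814 (mm9), Itgam gave 7220 and 12500 on EnhDel arrays 1 and 2, against 8730 and 7520 on control arrays 1 and 2. This probe begins with a run of repeated ca letters, and the other 2 probes of Itgam gave only 20.4 to 72.6. Whether the brightest probe reads Itgam RNA alone was not tested. EnhDel array 2 was the highest of the 4 and EnhDel array 1 the lowest, so the control values lay between the EnhDel values. The EnhDel replicates were 1.74-fold apart, a wider gap than for most genes: 14.2% of all genes had a wider one. The log2 difference was 0.23 ± 0.31 (SE, adjusted p 0.82). It was 0.63 without EnhDel replicate 1 and -0.17 without EnhDel replicate 2, so its direction rested on which EnhDel array was kept. Without control replicate 1 it was 0.34.

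The other 2 probes of Itgam are shown with their sequences, in the sense of the RNA, because all 3 probes of this gene were highest on EnhDel array 2. They are named by the base of the transcript at which they start.
Itgam probe at base 270, chr7:135212140-135212199 (mm9, plus strand): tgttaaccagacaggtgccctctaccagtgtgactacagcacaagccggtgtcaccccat
Itgam probe at base 3410, chr7:135260275-135260334 (mm9, plus strand): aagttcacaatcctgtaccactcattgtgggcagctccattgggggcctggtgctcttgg
The first gave 20.4 and 42.2 on EnhDel arrays, against 23.3 and 24.7 on control arrays. The second gave 51.2 and 72.6 on EnhDel arrays, against 65.8 and 50.5 on control arrays. On each of them, EnhDel array 2 was above both control arrays and EnhDel array 1 was not. Without EnhDel replicate 1, the probe at base 270 was the 1 integrin probe of 17 to pass the adjusted threshold, with a log2 difference of 0.82 ± 0.13 (SE, adjusted p 0.0409), where 14.3% of all probes passed.

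Itgax codes for the alpha X chain, CD11c, the beta2 partner known from dendritic cells, among them plasmacytoid ones. Its probe lies at chr7:135294052-135294111 (mm9), on the same chromosome as Itgam. Itgax had 24900 and 14700 on EnhDel arrays 1 and 2, against 22300 and 21500 on control arrays 1 and 2. Here EnhDel array 1 was the highest and EnhDel array 2 the lowest, the opposite of Itgam. The EnhDel replicates were 1.69-fold apart, and 15.7% of all genes had a wider gap. The log2 difference was -0.20 ± 0.29 (SE, adjusted p 0.839), with -0.57 without EnhDel replicate 1, 0.18 without EnhDel replicate 2 and -0.17 without control replicate 1. Itgam and Itgax were the 2 integrin genes with the widest gaps between EnhDel replicates. In the other 8 genes these replicates were 1.01-fold to 1.35-fold apart.

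**Figure D1:**
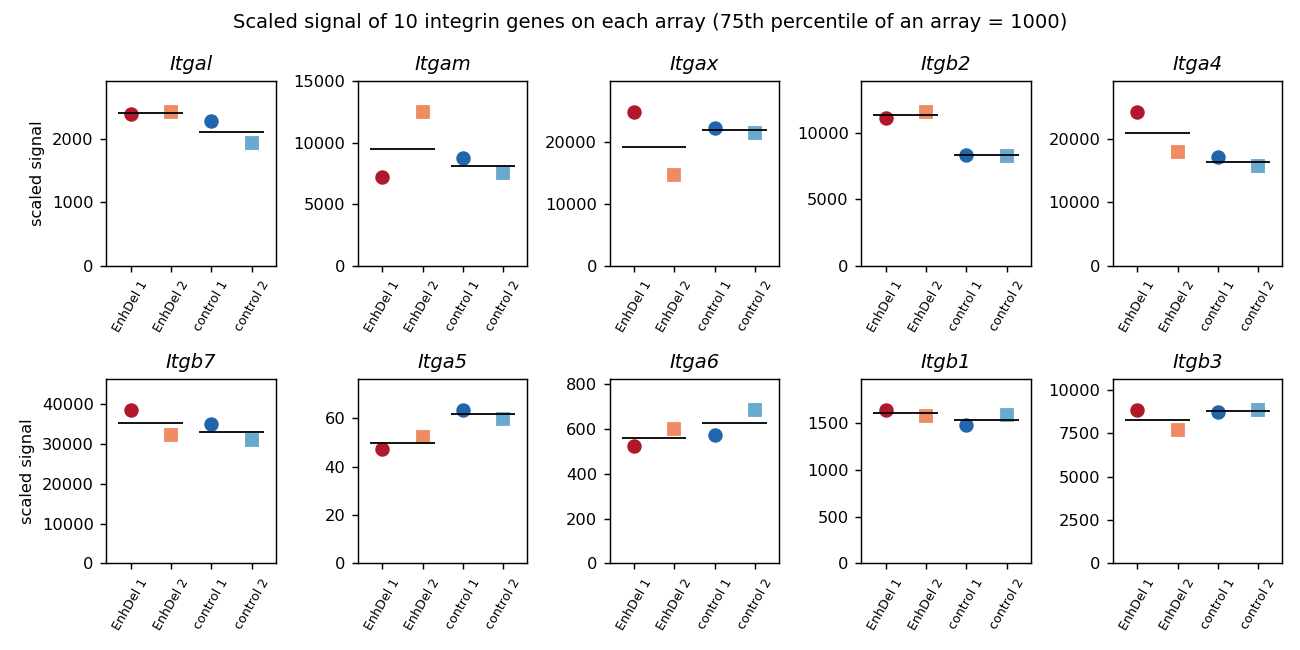
Scaled signal of the 10 integrin genes (y axis, linear, with an array's 75th percentile set to 1000) on EnhDel arrays 1 and 2 and control arrays 1 and 2 (x axis), with a line at the geometric mean of each group. Both EnhDel points of Itgb2 lie above both control points (11100 and 11600 against 8360 and 8300), and the EnhDel points of Itgam and Itgax lie on either side of their control points.

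The 150 bases before the start of Itgam and of Itgax are shown because these genes had the widest EnhDel gaps, in opposite directions. Both are RefSeq sequences of build GRCm38.p6, which is not the build of the probe positions. Capitals mark the letters GAGGAA, the core of many ETS and PU.1 sites, or their reverse complement.
Itgam, chr7:128062490-128062639, plus strand: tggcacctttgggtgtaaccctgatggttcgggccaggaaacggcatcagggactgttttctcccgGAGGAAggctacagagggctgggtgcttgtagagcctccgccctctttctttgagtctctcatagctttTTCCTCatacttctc
Itgax, chr7:128129400-128129549, plus strand: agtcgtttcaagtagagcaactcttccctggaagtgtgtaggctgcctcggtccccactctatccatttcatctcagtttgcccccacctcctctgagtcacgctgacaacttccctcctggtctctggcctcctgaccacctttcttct
In the 250 bases before the start, GAGGAA occurs at 2 places for Itgam, 84 bases upstream on the plus strand and 15 bases upstream on the minus strand, and at none for Itgax. RefSeq promoter windows were matched for 6 of the 10 integrin genes (Itgam, Itgax, Itga4, Itga5, Itgb1 and Itgb7), and 3 of the 6 hold GAGGAA on either strand, against 23.3% of 32851 windows of the same length. The C/EBP letters TTGCGCAA and TTGCNNAA, the first being contained in the second, occur in 0 of the 6 windows and in 0.164% and 9.56% of all windows. The ETS letters ACCGGAAG occur in 0 of the 6 (1.72% of all windows), the RUNX letters TGTGGT in 1, Itga4 (14.0%), and the Sp1 letters CCCCGCCC in 1, again Itga4 (16.1%). A match of letters describes the sequence alone.

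Markers of other marrow cells were read from the same arrays. The summed scaled signal of 14 neutrophil markers was 1224 and 11060 on EnhDel arrays 1 and 2, against 20270 and 24300 on control arrays 1 and 2. Mpo made up most of the control sums (591 and 7380 on EnhDel arrays, 14300 and 17000 on control arrays). The other neutrophil markers summed to 632.6 and 3683 in EnhDel cells, against 5970 and 7304 in control cells. Of the 8 tested neutrophil markers, 6 had a negative difference and 2, Camp and Lcn2, a positive one. At an unadjusted p under 0.05, 1 was higher (Lcn2) and 1 lower (Elane), beside 7.23% and 3.96% of all genes tested. Of the 14 markers 7 were well above background on all 4 arrays and 5 on none, namely Ltf, Ngp, Mmp8, Mmp9 and Retnlg. The 13 measured monocyte and macrophage markers summed to 8082 and 9274 in EnhDel cells, against 22100 and 19200 in control cells. Of 11 tested ones, 7 were lower in EnhDel cells at an unadjusted p under 0.05, beside 3.96% of all genes tested. None of these markers passed the adjusted threshold, and Fcgr1 was above background on no array. The 6 conventional dendritic cell markers summed to 63320 and 60370 in EnhDel cells and 77520 and 77220 in control cells, and the 9 NK markers to 17080 and 14270 in EnhDel cells and 17430 and 15150 in control cells. Klrd1 made up most of the NK sum, and the other 8 NK markers summed to 2377 and 3266 in EnhDel cells, against 2032 and 1545 in control cells. Of 8 tested NK markers, 6 had a positive difference, beside 59.7% of all genes tested. The 2 at an unadjusted p under 0.05, Gzmb and Eomes, were higher in EnhDel cells (7.23% of all genes tested). Gzmb had 75.5 and 242 on EnhDel arrays, against 4.73 and 5.46 on control arrays, where it was not well above background (at least 9.91-fold higher, adjusted p 0.183). The 5 measured mature B cell markers summed to 2323 and 3002 in EnhDel cells and 2243 and 2575 in control cells. The 10 markers of plasmacytoid dendritic cells summed to 1059000 and 1008000 in EnhDel cells and to 1057000 and 973800 in control cells. The sum of 6 mast cell and basophil markers was 391.5 and 1798 on EnhDel arrays and 375 and 483.9 on control arrays. Cpa3 alone carried this sum (365 and 1690 on EnhDel arrays, 285 and 365 on control arrays). The other 5 summed to 26.54 and 107.8 in EnhDel cells and 89.98 and 118.9 in control cells, with Fcer1a and Ms4a2 above background on no array. These leading genes of a sum were named after their values were seen. The markers' part in the integrin values was not tested, and fewer cells of a type and less RNA per cell cannot be told apart in such samples.

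Itga4 codes for the alpha4 chain, which joins beta1 to form VLA-4, the receptor for VCAM and fibronectin that holds progenitors in the marrow, or beta7 to form a gut homing receptor. Its brightest probe, at chr2:79173193-79173252 (mm9), gave 24300 and 18000 on EnhDel arrays, against 17100 and 15700 on control arrays. Both EnhDel arrays were above both control arrays, and the EnhDel replicates were 1.35-fold apart. The log2 difference was 0.36 ± 0.21 (SE, adjusted p 0.598), or 1.28-fold (95% interval 0.866 to 1.89). It was 0.57 without EnhDel replicate 2 and 0.42 without control replicate 1, but 0.14 without EnhDel replicate 1. Itga4 had a positive difference in all 16 settings run, from 0.02 to 0.57.

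The other probe of Itga4 is shown because it was, with that of Itgb2, 1 of 2 integrin probes with an unadjusted p under 0.05. Its 60 bases span 1131 bases of the genome, so its match to the genome is split.
Itga4 probe at base 2292, chr2:79153985-79155115 (mm9, plus strand): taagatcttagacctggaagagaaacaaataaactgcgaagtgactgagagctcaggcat
It gave 456 and 404 on EnhDel arrays, against 323 and 304 on control arrays. The groups did not overlap, and the log2 difference was 0.45 ± 0.16 (SE), with an unadjusted p of 0.0409 and an adjusted p of 0.431. Both probes of Itga4 thus had EnhDel above control.

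Itgb7 codes for the beta7 chain, the partner of alpha4 in the gut homing receptor. At chr15:102046450-102046509 (mm9, minus strand), it had 38500 and 32200 on EnhDel arrays, against 34800 and 30900 on control arrays, so the groups overlapped. Its log2 difference was 0.10 ± 0.18 (SE, adjusted p 0.859), with 0.23 without EnhDel replicate 2 and 0.19 without control replicate 1, -0.03 without EnhDel replicate 1 and 0.02 without control replicate 2. Itgb1, the gene of the beta1 chain, which pairs with the largest number of alpha chains, had, on a probe at chr8:131250081-131255976 (mm9), 1640 and 1570 on EnhDel arrays and 1480 and 1580 on control arrays. For Itgb1 the groups also overlapped, and the difference was 0.06 ± 0.15 (SE, adjusted p 0.895). Without EnhDel replicate 2 Itgb1 differed by 0.10, without control replicate 1 by 0.02 and without control replicate 2 by 0.11. The 95% interval of Itgb1 in fold was 0.792 to 1.38. On the second probe of Itgb1 the values were 286 and 204 in EnhDel cells and 258 and 225 in control cells, with a log2 difference of 0.01 ± 0.23 (SE). With median scaling both turned negative, Itgb7 to -0.10 and Itgb1 to -0.14. Neither beta partner of alpha4 thus gave a difference beyond the spread of its replicates.

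Itga5 codes for the alpha5 chain of the main fibronectin receptor. On its probe at chr15:103175022-103175081 (mm9, minus strand), the scaled signal was 47.3 and 52.1 on EnhDel arrays, against 63.5 and 59.4 on control arrays. It was the 1 integrin gene with both EnhDel arrays below both control arrays on its brightest probe, with a log2 difference of -0.31 ± 0.16 (SE, adjusted p 0.549). Itga5 and Itgb2 were the 2 genes of 10 whose difference exceeded the gap between replicates in both groups. The share of all genes for which this held was not counted. Itga5 differed by -0.38 without EnhDel replicate 2 and by -0.26 without control replicate 1. Its difference was larger with quantile normalization (-0.51, unadjusted p 0.0162), median scaling (-0.51, unadjusted p 0.0397) and cyclic loess (-0.60, unadjusted p 0.0125), with adjusted p of 0.361 to 0.455. The direction of Itga5 turned with normexp background correction, which gave 0.85 ± 0.72 (SE). With 6 spots of EnhDel array 1 that had very high local background repaired, Itga5 again had a negative difference, -0.10.

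Itga6 codes for the alpha6 chain of laminin receptors, a marker of stem and progenitor cells in several tissues. On a probe at chr2:71694756-71694815 (mm9), Itga6 gave 524 and 599 on EnhDel arrays, against 574 and 687 on control arrays, and the groups overlapped. Its log2 difference was -0.17 ± 0.18 (SE, adjusted p 0.777), with -0.26 without EnhDel replicate 2 and -0.30 without control replicate 1, but -0.07 without EnhDel replicate 1 and -0.04 without control replicate 2. Itgb3 codes for the beta3 chain, which joins the platelet chain alpha IIb or the alpha V chain. On its brightest probe, at chr11:104531672-104531731 (mm9), Itgb3 had 8880 and 7700 on EnhDel arrays, against 8710 and 8860 on control arrays, a log2 difference of -0.09 ± 0.16 (SE, adjusted p 0.867). With EnhDel replicate 2 left out Itgb3 differed by 0.02, with control replicate 1 left out by -0.10, and with EnhDel replicate 1 left out by -0.19. The second probe of Itgb3 gave 173 and 132 in EnhDel cells against 183 and 197 in control cells. There both EnhDel arrays were below both control arrays (log2 difference -0.33 ± 0.20, SE, adjusted p 0.606), while the brightest probe overlapped.

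**Figure D2:**
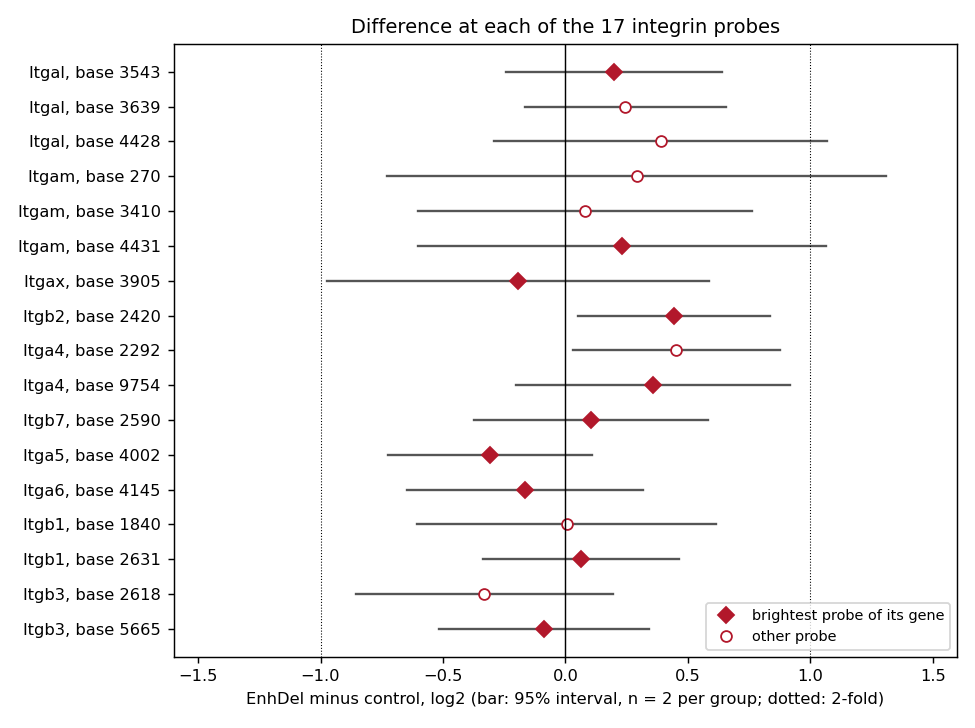
Difference between EnhDel and control cells (x axis, EnhDel minus control on the log2 scale) at each of the 17 integrin probes, with bars for the 95% interval (n = 2 per group) and dotted lines at 2-fold. The bars of Itgb2 and of the Itga4 probe at base 2292 leave out 0, and those of 14 probes stay within 2-fold.

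The 5 genes measured by several probes (Itgal, Itgam, Itga4, Itgb1 and Itgb3, 12 probes in all) had the same sign on every probe of a gene. Of the 17 probes, 0 passed an adjusted p of 0.05, as for all 24287 tested probes (0%), and 2 had an unadjusted p under 0.05 (11.1% of all probes), both higher in EnhDel cells (7.16%) and 0 lower (3.9%). In 7 the groups did not overlap (44.1%), 5 with EnhDel above (28.3%) and 2 with EnhDel below (15.7%). None of the 17 was 2-fold apart (5.9%), 14 had an interval within 2-fold (69.1%), and 12 had a positive difference (59.6%). All 17 were well above background on all 4 arrays. Probes of 1 gene read the same RNA sample and are not replicates of the comparison.

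In the authors' deposited table, which gives 1 log2 value per gene, the integrins differed by -0.20 to 0.45 between EnhDel and control arrays. There, in the authors' deposited table, Itgb2 had 13.3 and 13.5 on EnhDel arrays and 12.9 and 13 on control arrays, again the largest positive difference of the 10 genes. The values of the authors' deposited table lay within 0.13 of the mean log2 median signal over all probes of a gene. For the 5 genes with several probes, the authors' deposited table lay up to 1.45 (Itgb1) to 4.76 (Itgam) from the brightest probe, so dim and bright probes weigh alike in it. For Itgb1 the sign turned, with a difference of -0.05 in the authors' deposited table.

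**Figure D3:**
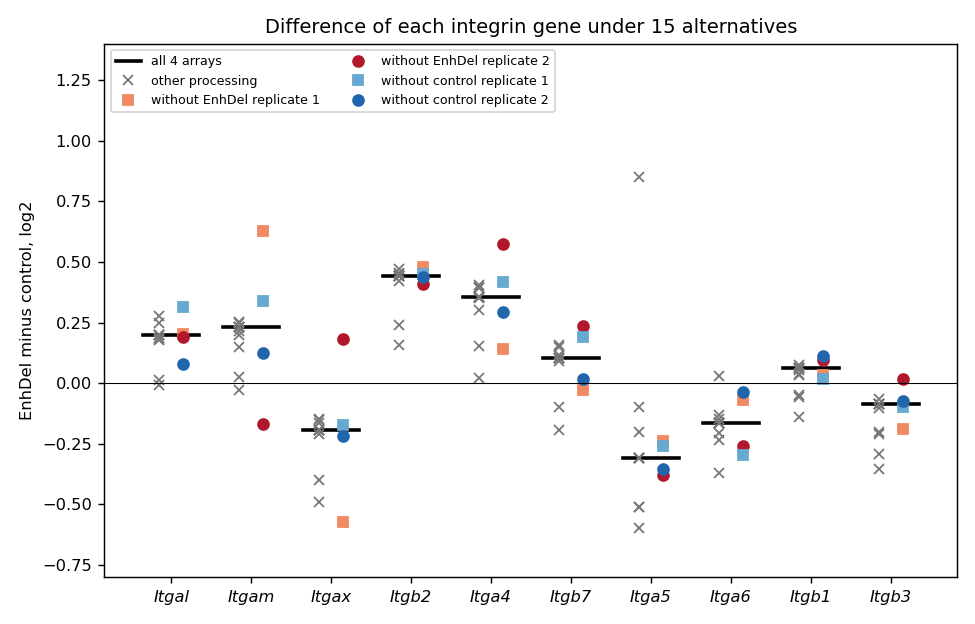
Difference between EnhDel and control cells (y axis, EnhDel minus control on the log2 scale) for each integrin gene (x axis) with all 4 arrays (line), with other processing (crosses) and with 1 array left out (coloured symbols). Itgb2 and Itga4 stay above 0 throughout, Itgam runs from -0.17 to 0.63 and Itgax from -0.57 to 0.18 as an EnhDel array is left out, and the cross of Itga5 at 0.85 is normexp without repair.

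The remaining integrin chains, 16 genes, were mostly dim, with 7 on no array and 6 on all 4 arrays well above background. Of the 7 that were tested, 0 passed the adjusted threshold. At an unadjusted p under 0.05, 1 was higher and 2 were lower in EnhDel cells, beside 7.23% and 3.96% of all genes tested. Itga2b, the platelet alpha IIb chain that pairs with beta3, had 14.5 and 29.1 on EnhDel arrays, against 3.27 and 5.65 on control arrays. It was not well above background in control cells, and EnhDel was at least 1.51-fold higher (adjusted p 0.267). For a gene dim in 1 group, such a bound takes the mean of the other group over the weakest signal that any probe had well above background on each dim array, or over the gene's own signal where that is higher. Beside it, 11 markers of megakaryocytes and platelets summed to 979.3 and 1309 in EnhDel cells, against 976.2 and 808.3 in control cells, with Gp1ba, Gp5 and Gp6 above background on no array. Their part in the value of Itga2b was not tested. Itgb5, a beta chain that pairs with alpha V, had 56.7 and 46.9 on EnhDel arrays, against 145 and 99.8 on control arrays, a log2 difference of -1.22 ± 0.25 (SE, adjusted p 0.274). Itgb4, the partner of alpha6 in epithelia, had 123 and 94.9 on EnhDel arrays, against 153 and 189 on control arrays (adjusted p 0.409). Itga10, a collagen-binding chain, had 387 and 291 on EnhDel arrays, against 278 and 211 on control arrays (adjusted p 0.552).

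Among 23 genes that switch integrins on or off, 20 were tested. None passed the adjusted threshold, and 2 were higher and 0 lower at an unadjusted p under 0.05 (7.23% and 3.96% of all genes tested). The median log2 difference was 0.13, beside 0.07 for all genes tested. Rasgrp1, a Ras exchange factor of lymphocytes, had 132 and 110 on EnhDel arrays, against 54.2 and 60.4 on control arrays, a log2 difference of 1.08 ± 0.18 (SE, adjusted p 0.214). Skap1, an adaptor that couples the T cell receptor to integrins, had 296 and 189 on EnhDel arrays, against 132 and 123 on control arrays (0.89 ± 0.26, SE, adjusted p 0.38). In these genes the EnhDel arrays were above both control arrays. Beside them the 8 T cell markers summed to 23610 and 33430 in EnhDel cells, against 16020 and 13720 in control cells, with all 8 well above background on all 4 arrays and their part not tested. Cd4 carried this difference, with 16000 and 28700 on EnhDel arrays and 9290 and 8210 on control arrays, and the other 7 summed to 7610 and 4733 in EnhDel cells and 6734 and 5514 in control cells. Of the 8, 3 were higher in EnhDel cells at an unadjusted p under 0.05 (Cd3d, Cd3g and Cd4), beside 7.23% of all genes tested. Lck and Lat had negative differences. Fyb, a binding partner of Skap1, had 23600 and 20600 on EnhDel arrays, against 16700 and 17000 on control arrays (adjusted p 0.477). Flna, filamin, which binds beta tails and holds them inactive, had 16200 and 11900 on EnhDel arrays, against 18900 and 18300 on control arrays (adjusted p 0.544). Of the 20, 10 had groups without overlap, 8 with EnhDel above and 2 below, beside 44.1%, 28.6% and 15.5% of all genes tested.

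Downstream of integrins, 25 of 27 signalling genes were tested, and 0 passed the adjusted threshold. At an unadjusted p under 0.05, 2 were higher and 1 lower (7.23% and 3.96% of all genes tested), with a list median of 0.07. Actn1, an actinin that links integrins to actin, had 256 and 344 on EnhDel arrays, against 144 and 115 on control arrays (1.21 ± 0.23, SE, adjusted p 0.252). Vav3, an exchange factor for small GTPases, had 173 and 219 on EnhDel arrays, against 288 and 290 on control arrays (adjusted p 0.405). Pxn, paxillin, an adaptor that binds the alpha4 tail, had 157 and 121 on EnhDel arrays, against 97.0 and 96.7 on control arrays (adjusted p 0.445).

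Of 24 genes of integrin ligands, 17 were tested, 0 passed the adjusted threshold, and the list median was 0.25. At an unadjusted p under 0.05, 2 were higher and 1 lower, beside 7.23% and 3.96% of all genes tested. Fn1, fibronectin, which the alpha4 and alpha5 integrins bind, had 2.86 and 2.66 on EnhDel arrays, against 653 and 273 on control arrays. It was not well above background in EnhDel cells and was at least 33.2-fold lower there, with an adjusted p of 0.0708. That bound was 21.5-fold without control replicate 1 and 51.4-fold without control replicate 2. The log2 difference of Fn1 was -1.73 with normexp and -3.0 with its 6 spots repaired, where an offset is added to the signal, and -3.60 in the authors' deposited table. Cdh1, E-cadherin, a ligand of the alpha E beta7 integrin, had 7930 and 6770 on EnhDel arrays, against 4430 and 3850 on control arrays, a log2 difference of 0.83 ± 0.18 (SE, adjusted p 0.288). Its receptor chain Itgae was above background on no array. Vwf, the von Willebrand factor, had 39.6 and 45.0 on EnhDel arrays, against 28.6 and 27.8 on control arrays (adjusted p 0.347). Icam4, an ICAM of red cells, had 37.3 and 43.0 on EnhDel arrays, against 21.2 and 32.9 on control arrays (adjusted p 0.501). For Icam4, 7 erythroid markers summed to 1288 and 1723 in EnhDel cells, against 379.2 and 821 in control cells, and their part was not tested.

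All 12 genes of proteins that lie beside integrins in the membrane were tested, with 0 past the adjusted threshold and a median of 0.10. At an unadjusted p under 0.05, 0 were higher and 1 was lower, beside 7.23% and 3.96% of all genes tested. Emb, embigin, a membrane glycoprotein, had 670 and 378 on EnhDel arrays, against 2240 and 2350 on control arrays, a log2 difference of -2.19 ± 0.32 (SE, adjusted p 0.196). Plaur, the urokinase receptor, which associates with Mac-1, had 10000 and 19300 on EnhDel arrays, against 6520 and 8720 on control arrays (0.88 ± 0.38, SE, adjusted p 0.486). Cd81, a tetraspanin, had 561 and 510 on EnhDel arrays, against 606 and 830 on control arrays (adjusted p 0.563). Cd63, another tetraspanin, had 647 and 1940 on EnhDel arrays, against 617 and 527 on control arrays (adjusted p 0.589).

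**Figure D4:**
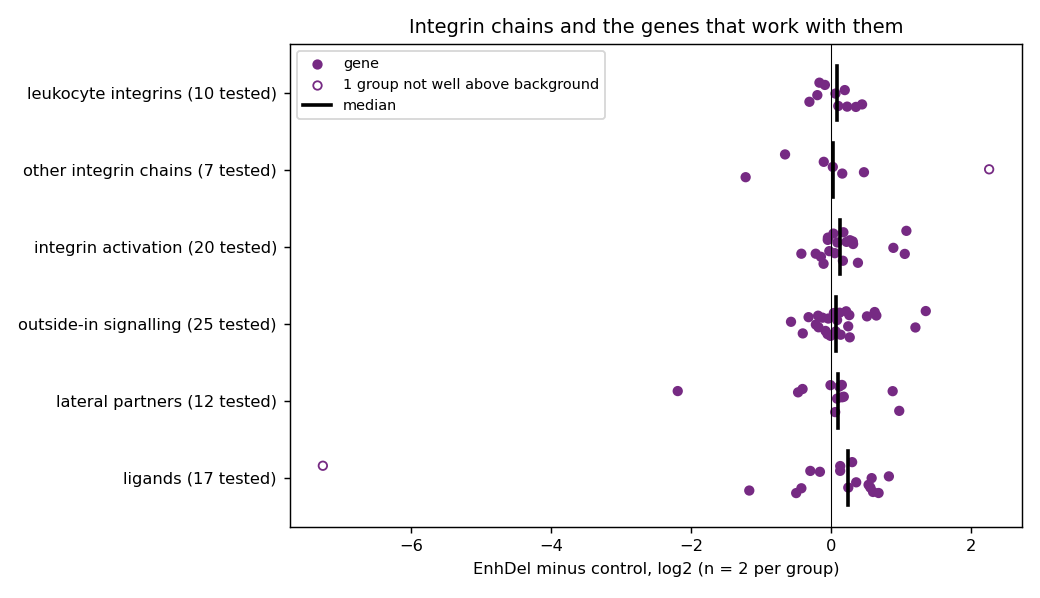
Difference between EnhDel and control cells (x axis, EnhDel minus control on the log2 scale, n = 2 per group) for each tested gene of the integrins and of 5 lists of genes that work with them (rows), with the list median as a bar and open circles where 1 group was not well above background. The integrins lie between -0.31 and 0.44 around a median of 0.08, and the open circle far to the left is Fn1.

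Across the 10 integrins, 6 differences were positive and 4 negative, and 59.7% of all genes had a positive one. Their median log2 difference was 0.08, beside 0.07 for all genes, and their median size was 0.20, beside 0.21. With median scaling of the arrays the median was -0.12 for the integrins and -0.14 for all genes. None of the 10 was 2-fold apart between the groups, against 6.34% of all genes that were. The EnhDel replicates were further apart than the control replicates in 7 of 10 integrins and in 77% of all genes. The median gap between replicates of the integrins was 0.20 in EnhDel and 0.12 in control cells on the log2 scale, beside 0.33 and 0.13 for all genes.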

How the data were processed

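Total RNA of sorted preproB cells was amplified linearly, labelled with Cy3 and hybridised, per the labels' protocols. The scanner files that the authors deposited were made with Agilent Feature Extraction 10.7.3.1, per the file headers, with all 4 arrays on 1 slide in 1 scan. They hold, per the file headers, the intensity of 44397 spots per array, with positions in build mm9. The authors also deposited 1 log2 table, with 1 decimal and column medians of 6.5, whose normalization is not given in the sources used here.

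Control spots and 126 to 162 flagged spots per array were left out, and no spot was saturated. The processed signal was put on the log2 scale, the 75th percentile of its array was subtracted, and spots of a probe were averaged. By accession, 26581 of 39429 probes were named through RefSeq, and the rest are named as in the file. The brightest probe stood for its gene, and the gene was tested if that probe was well above background on every array of 1 group or of both. Per array, 59.6% to 64.9% of probes were above it. EnhDel and control were compared in R 4.3.3 with limma 3.58.1 (lmFit, then eBayes), with Benjamini-Hochberg adjustment over 19394 genes and a threshold of 0.05. The fit was also run on simulated data in which both groups had the same spread. It did not cover the wider gap of the EnhDel replicates (SD 0.611, against 0.333 in control samples). Precision is limited by the number of arrays.

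The integrin genes and the gene lists were chosen with earlier results of these data known. All 10 integrins with every probe were named, and of each further list up to 4 tested genes with the smallest p, beside Cebpa, cell type markers and sex-linked genes. Some genes that this rule takes are not reported here. Alternatives were normexp (offset 50) with and without repair of 6 spots, quantile normalization, median scaling, cyclic loess, the filter on dim probes dropped or tightened to all 4 arrays, a gene's probes averaged, robust variance with an intensity trend, the authors' deposited table, the replicate number as a block and each array left out. Exons and UTRs were not assigned to probes.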

Additional observations from a re-analysis of the deposited data

How the results depend on the processing

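No integrin gene passed the adjusted threshold under any of the 15 alternatives, and the lowest adjusted p was 0.0618, for Itgax without EnhDel replicate 1. Of 150 comparisons of an integrin gene with its value from all 4 arrays, 137 kept the direction and 13, in 8 genes, did not. Under normexp without repair, Itga5 turned to 0.85, Itga6 to 0.031, Itgam to -0.03, Itgb1 to -0.058, Itgb7 to -0.19 and, of the other chains, Itgb5 to 0.34. With the 6 spots repaired, normexp gave Itga5 -0.099, Itga6 -0.131, Itgam 0.216, Itgb1 0.056, Itgb7 0.092 and Itgb5 -0.655. Each of these had the sign found with the processed signal of all 4 arrays. Median scaling moved the median of all genes to -0.14, against 0.07 with the 75th percentile (0.19 with normexp), and gave Itgal -0.006, Itgb1 -0.14 and Itgb7 -0.10. With the authors' deposited table Itgb1 had -0.05. With 1 array left out, Itgam ran from -0.17 to 0.63, Itgax from -0.57 to 0.18, Itgb3 from -0.19 to 0.016 and Itgb7 from -0.027 to 0.23. The cause was not tested. Integrins without overlap numbered 2 with normexp (59.7% of all genes), 7 with quantile normalization (42.3%) and 5 to 10 with 1 array left out, where 2 values face 1 and 60.4% to 88.9% of all genes do not overlap. Genes called over the whole array numbered 23 with median scaling, 2 with the mean of probes and 1 to 2938 with 1 array left out, the most without EnhDel replicate 1, where the spread comes from the control arrays alone and the lone sample is assumed to vary like them. Genes at an unadjusted p under 0.05 numbered 2171 with all 4 arrays, 1206 with normexp and 956 to 7416 with 1 array left out. Called genes of the other lists numbered 1 with median scaling (Fn1) and 0 to 15 with 1 array left out (Fn1 when EnhDel replicate 1 or either control replicate was left out, and Emb and Rasgrp1 among the 15 without EnhDel replicate 1), and called integrin probes 0 to 1. Cebpa without EnhDel replicate 1 had -1.87 (adjusted p 0.0433), and over the 4 arrays left out in turn it ran from -2.95 to -1.87. The replicate block left 0 genes called, 1943 at an unadjusted p under 0.05 and 0 integrins at that level (Itgb2 adjusted p 0.53), and same-numbered samples did not deviate together (correlation -0.02), so the numbers were not treated as pairs. The arrays' lowest processed signals well above background, 11.6 to 14.4 before scaling to the 75th percentile, set how dim a chain could be measured.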
